A study of Mus musculus with 2 samples.

Results

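Connexin genes Gja1, Gja4, Gja5, Gjb2, Gjb6, Gjc1 and Gjc3 are described here across the cell classes of the mouse choroid and retinal pigment epithelium (RPE). They are 7 of the 20 connexin genes and of the 32285 genes in the matrices. They were chosen by symbol and by no threshold on their values, but with earlier results of these data known. Their calls therefore describe a list picked with these data in view. All cells came from 1 group, wild-type ICR mice, an outbred albino stock, aged 8 weeks, with no treatment or mutation to compare. The 2 droplet libraries each pooled choroids from 1 male and 1 female mouse, so the library is the replicate (n = 2), and barcodes were not separated by sex. The tissue had been digested with collagenase and trypsin before 10000 cells per library were loaded, and the comparisons are therefore between cell classes within the same libraries.

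Connexins are the subunits of gap junctions. Subunits form a hexameric hemichannel in the membrane, and hemichannels of adjoining cells dock into a channel that passes ions and small molecules. Channels can be built from 1 connexin or from compatible mixtures, so which members a cell type transcribes sets which channels it can form. In vessels Gja4 (Cx37), Gja5 (Cx40), Gja1 (Cx43) and Gjc1 (Cx45) are the classical members, Gjb2 (Cx26) and Gjb6 (Cx30) are best known as partners in the supporting cells of the cochlea, and Gjc3 (Cx29) is known from Schwann cells and oligodendrocytes.

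The matrices held 91741168 UMIs in library 1 and 149570817 UMIs in library 2, and 8497 and 13401 barcodes passed limits of 1000 UMIs and 500 genes as minima and 20% of UMIs from mitochondrial genes as the maximum. In library 2 these are more than the 10000 cells stated as loaded, and the reason was not tested. Each barcode was placed in the class of whose 3 markers it held most UMIs, with a minimum of 5. The markers were Cdh5, Pecam1 and Egfl7 for endothelial cells, Rgs5, Kcnj8 and Higd1b for pericytes, Myh11, Cnn1 and Acta2 for smooth muscle, and Dcn, Col1a2 and Col3a1 for fibroblasts. They were Dct, Pmel and Mlana for melanocytes, Rpe65, Rgr and Rlbp1 for RPE, and C1qa, Csf1r and Cd68 for macrophages. The classes held 464 and 609 endothelial, 1038 and 1425 pericyte, 234 and 330 smooth muscle, 3998 and 6232 fibroblast, 1407 and 2251 melanocyte, 304 and 903 RPE, and 429 and 865 macrophage barcodes, in libraries 1 and 2. Of 21 further markers that the class rule did not use, 20 were highest in their own class, and the exception, the RPE gene Best1, had a mean of 0.332 CPM in RPE and at most 1.63 CPM in any class. Median depth ran from 5582 UMIs in pericytes to 26254 UMIs in RPE in library 1, and from 5779 UMIs in pericytes to 19072 UMIs in RPE in library 2. The libraries shared 31 barcode sequences. Barcodes with at most 100 UMIs, read as free RNA, held 4.90% and 4.11% of all UMIs. A class is defined by its markers, so a barcode that carries RNA of more than 1 cell type enters the class with most marker UMIs, and levels by second markers are given below where they were counted.

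Each member had its own order of classes. Gja1 was highest in endothelial barcodes, with RPE and fibroblasts next. Gja4 and Gjc1 were highest in the mural classes, pericytes and smooth muscle. Gjb2, Gjb6 and Gjc3 were highest in melanocytes, and Gja5 was low everywhere with its largest level in endothelial barcodes. Macrophages had little of any member. Levels are UMIs scaled to 1e6 UMIs of the class (CPM), and each class was compared with the equal-weighted mean of the other 6 by edgeR's quasi-likelihood test on the summed counts. A call needed both a p below 0.05 after Benjamini-Hochberg adjustment over all 15146 genes tested and a fold of 1 or more in size on the log2 scale. Of 49 member-by-class contrasts, 14 were called higher and 13 lower. With estimated free RNA subtracted all 14 calls as higher were kept, and of the 13 as lower only the 3 in macrophages were.

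**Figure D1:**
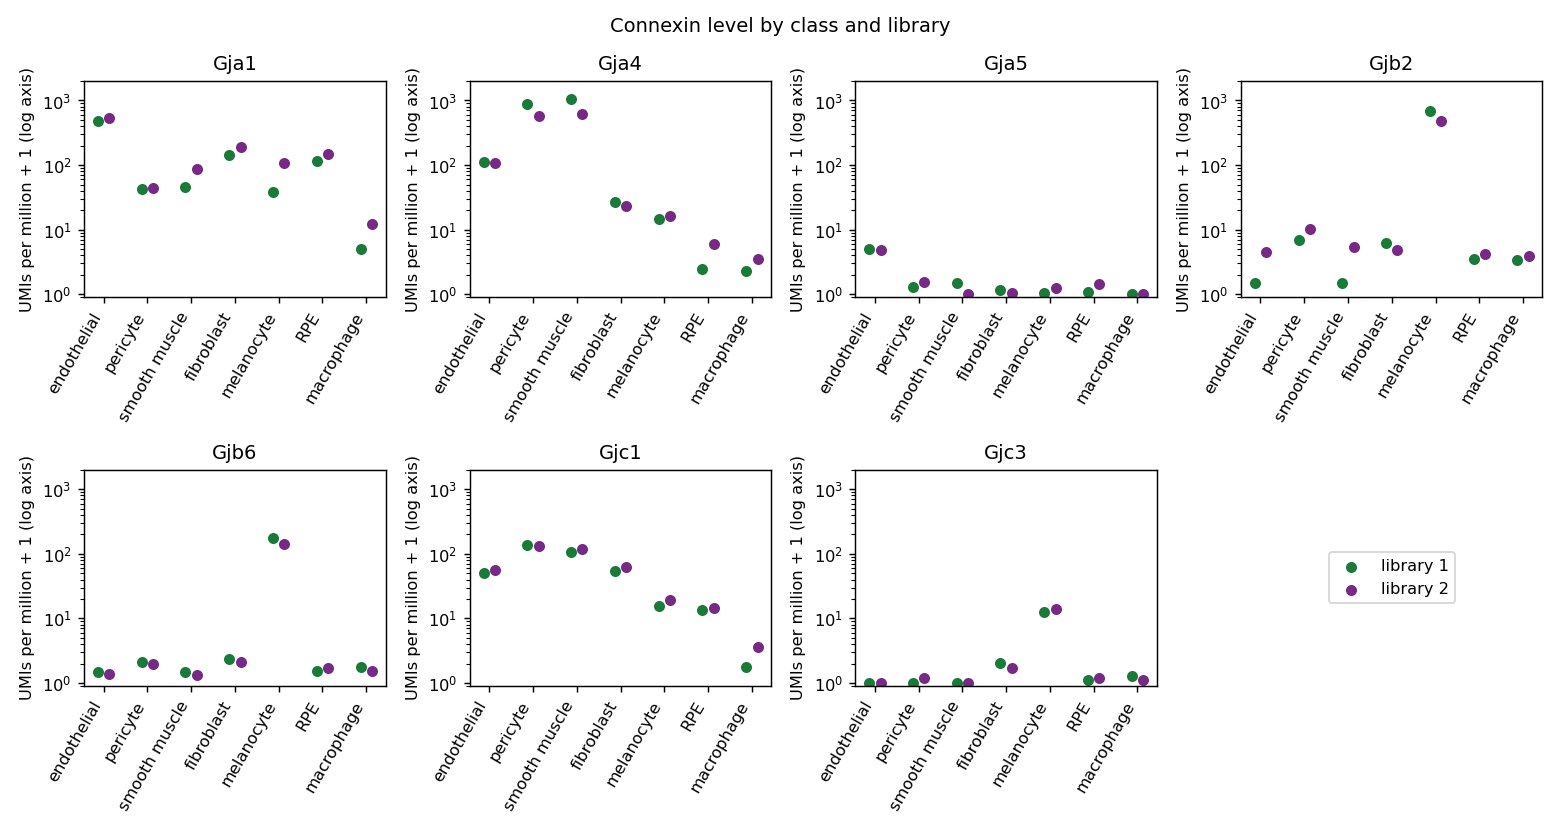
Level of each connexin in the 7 classes. The y axis is CPM plus 1 on a log axis, and each point is 1 library. Gjb2, Gjb6 and Gjc3 stand highest in melanocytes, Gja4 and Gjc1 in pericytes and smooth muscle, and Gja1 and Gja5 in endothelial barcodes.

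In endothelial barcodes 3 members were called higher (Gja1, Gja4 and Gja5), where 15% of all genes tested were called higher, and 2 were called lower (Gjb2 and Gjb6), where 19.5% were. The Gjb2 call rests on 3 and 28 UMIs and was lost (-1.54, edgeR adjusted p = 0.126) when class markers had to be at least 4 times the next. In pericytes 2 members were called higher (Gja4 and Gjc1; 12.9% of all genes) and 1 lower (Gja1; 9.26%). In smooth muscle 2 were called higher (Gja4 and Gjc1; 12.4%) and 1 lower (Gjb6; 7.29%). The Gjb6 call rests on 1 UMI in each library and was lost by DESeq2 (adjusted p = 0.0769) and with class markers at least 4 times the next (-0.48, edgeR adjusted p = 0.788). In fibroblasts 3 were called higher (Gja1, Gjc1 and Gjc3; 17.1%) and 0 lower (6.31%), with Gja4 and Gjb2 at unadjusted p of 0.0374 and 0.0848. In melanocytes 3 were called higher (Gjb2, Gjb6 and Gjc3; 14.7%) and 2 lower (Gja4 and Gjc1; 11.3%). In RPE 1 was called higher (Gja1; 26.3%) and 4 lower (Gja4, Gjb2, Gjb6 and Gjc1; 23.5%). In macrophages 0 were called higher (19.8%) and 3 lower (Gja1, Gja4 and Gjc1; 21.1%). For Gjb2 and Gjb6 the mean of the other 6 includes melanocytes, far above every other class. Each call of Gjb2 or Gjb6 as lower is thus against a mean raised by melanocytes. Over all genes the median log2 fold change was -0.12 in endothelial barcodes and -0.14 in macrophages, and the members' folds are read against that shift. The members' own median was 0.84 in endothelial barcodes, 0.0017 in pericytes, -0.46 in smooth muscle, -0.37 in fibroblasts, -0.33 in melanocytes, -1.10 in RPE and -3.43 in macrophages.

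**Figure D2:**
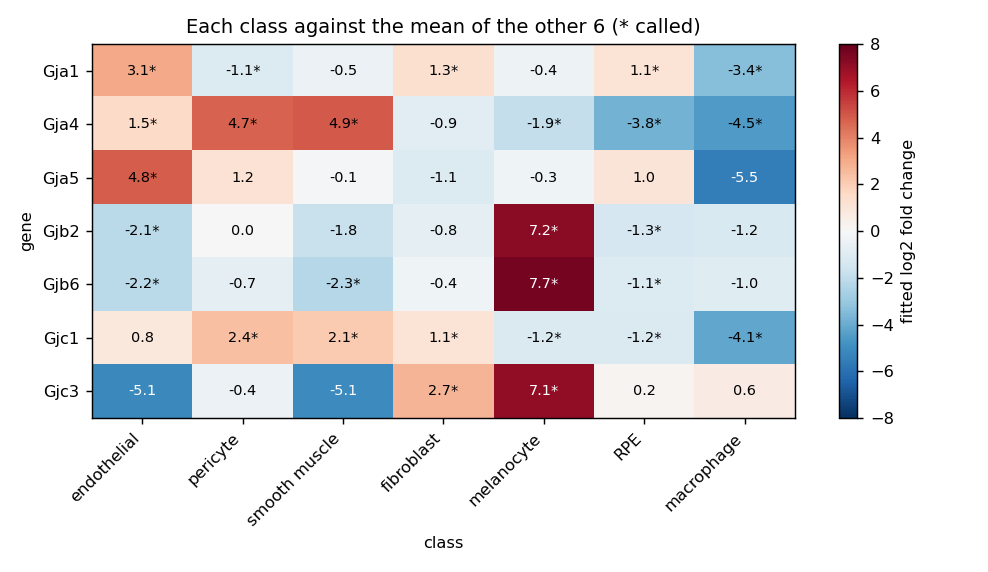
Fitted log2 fold change of each connexin in each class against the mean of the other 6 classes, from 2 libraries per class. Colour and number give the fold, and an asterisk marks a call. Gjb2, Gjb6 and Gjc3 reach 7.24, 7.66 and 7.09 in melanocytes. Fitted folds of Gjc3 and Gja5 in classes with 0 UMIs depend on the prior count and are no estimate of size. These classes also enter the mean that each other class is set against, so no fold of Gjc3 or Gja5 estimates size. Against the next class, Gjc3 in melanocytes was higher by 3.74.

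Gja1 encodes Cx43, the most widespread connexin, and lies at chr10:56377330-56402513 on the plus strand (GRCm38). In endothelial barcodes its level was 479 CPM in library 1 and 530 CPM in library 2, and 81.2% (exact 95% interval 77.4% to 84.7%) and 82.9% (79.7% to 85.8%) of barcodes held a UMI. Fibroblasts had 144 and 190 CPM, and RPE had 116 and 146 CPM. The endothelial values lay above those of every other class in both libraries. The difference between endothelial barcodes and fibroblasts, the next class, was 1.54 ± 0.32 on the log2 scale (SE, edgeR quasi-likelihood, adjusted p = 0.00271), in a contrast in which 14.6% of genes were called higher in endothelial barcodes. This pair, like each pair of neighbouring classes below, was picked from the same data. Fibroblasts and RPE overlapped and did not differ beyond their spread (0.15 ± 0.31, edgeR adjusted p = 0.684).

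RPE cells are joined by gap junctions in which Cx43 is a known component. Gja1 UMIs were found in 76.6% and 78.5% of RPE barcodes, against 47.3% and 54.4% of fibroblast barcodes. The RPE barcodes were the deepest, and after each cell was thinned to 3000 UMIs the shares were 22.8% and 35.2% in RPE and 28.4% and 33.9% in fibroblasts, so the order was not kept. In RPE barcodes with 0 fibroblast marker UMIs the level was 107 and 137 CPM, close to that of the class as a whole. Gja1 was 3.94 and 11.2 CPM in macrophages, where 3.03% and 5.66% of barcodes held a UMI at median depths of 8725 and 8408 UMIs. In the 12 and 42 macrophage barcodes with at least 5 fibroblast marker UMIs Gja1 was 19.2 and 61.3 CPM, and in those with 0 it was 2.05 and 3.12 CPM. Macrophages had the lowest levels of most members, and their shares are given for comparison below. They are not the background of each class, since the share of free RNA was estimated at 0.380% (RPE, library 1) to 18.1% (pericytes, library 2), with 13.4% and 7.28% in macrophages.

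RPE exceeded melanocytes (38.0 and 108 CPM) in Gja1 by 1.27 ± 0.32 (edgeR adjusted p = 0.00737), in a contrast in which 19.9% of genes were called higher in RPE. In the mural classes Gja1 was low, with 41.1 and 42.6 CPM in pericytes and 45.2 and 86.5 CPM in smooth muscle. Pericytes still exceeded macrophages by 1.98 ± 0.41 (edgeR adjusted p = 0.00250; 21.8% of genes were called higher in pericytes). Free RNA itself held Gja1 at 98.1 and 141 CPM, above both mural levels, and its part in them was not tested. Most of the mural Gja1 lay in barcodes that also held at least 5 fibroblast marker UMIs. These were 395 of 1038 and 690 of 1425 pericyte barcodes, with 65.9% and 78.6% of the class's Gja1 UMIs, at 58.3 and 58.0 CPM. In smooth muscle they were 46 of 234 and 95 of 330 barcodes, with 79.8% and 76.5% of the Gja1 UMIs, at 120 and 165 CPM. In pericyte barcodes with 0 fibroblast marker UMIs the level was 13.9 and 17.2 CPM, on 13 and 17 UMIs. In smooth muscle barcodes with 0 such UMIs it was 20.3 and 43.5 CPM, on 15 and 31 UMIs. The part of these markers in the level was not tested. The call of Gja1 as lower in pericytes (-1.12 ± 0.28, edgeR adjusted p = 0.00965) was lost in fold, at -0.87, when melanocyte barcodes with epithelial markers, described below, were left out, and was -0.97 (edgeR adjusted p = 0.130) with free RNA subtracted.

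Gja4 encodes Cx37 and lies at chr4:127311421-127314039 on the minus strand. Its level was 1042 and 622 CPM in smooth muscle and 889 and 569 CPM in pericytes, and library 1 was the higher of the libraries in both. UMIs were found in 73.9% and 69.7% of smooth muscle barcodes and in 75.2% and 73.0% of pericyte barcodes, against 0.699% and 1.04% of macrophages. The mural classes did not differ from each other beyond their spread (0.15 ± 0.42, edgeR adjusted p = 0.857; 6.58% of genes were called higher in smooth muscle). Endothelial barcodes came next with 110 and 107 CPM, below both mural classes in both libraries. Pericytes exceeded them by 2.75 ± 0.45 on the log2 scale (edgeR adjusted p = 0.00155), in a contrast in which 16.9% of genes were called higher in pericytes. Endothelial barcodes exceeded fibroblasts (25.7 and 22.2 CPM) by 2.1 ± 0.44 (edgeR adjusted p = 0.00454), and melanocytes (13.6 and 15.4 CPM) exceeded RPE (1.44 and 5.09 CPM) by 1.64 ± 0.51 (edgeR adjusted p = 0.0254; 19.6% of genes were called higher in melanocytes).

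Within smooth muscle, Gja4 followed the pericyte markers Rgs5, Kcnj8 and Higd1b. Barcodes with at least 5 of these UMIs had 1292 and 802 CPM, and 90.4% and 85.4% of them held Gja4. Barcodes with 0 had 434 and 157 CPM and 30.2% and 21.7%, still far above the share in macrophages. Gja4 in pericytes varied less with smooth muscle markers, with 1104 and 627 CPM in barcodes with at least 5 of those UMIs and 676 and 473 CPM in barcodes with 0. In CPM, endothelial Gja4 was lower in barcodes with pericyte markers. It was 56.4 and 52.8 CPM in endothelial barcodes with at least 5 pericyte marker UMIs, and 139 and 142 CPM in those with 0. The part of depth in this was not tested. The share with a Gja4 UMI was 17.0% and 37.1% with at least 5 and 22.4% and 20.05% with 0, so the libraries went opposite ways in share, at median depths of 18587 and 25956 UMIs against 7070 and 6261 UMIs. In fibroblasts Gja4 was 30.2 and 31.4 CPM in barcodes with at least 5 pericyte marker UMIs, which held 36.0% and 49.9% of its UMIs, and 22.9 and 15.9 CPM in those with 0. In melanocytes, 61.3% and 86.1% of Gja4 UMIs lay in the 47 and 113 barcodes with at least 5 pericyte marker UMIs, and those with 0 had 5.79 and 1.48 CPM.

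Gja5 encodes Cx40, the classical connexin of arterial endothelium and of the atrial and conducting heart muscle. Its annotated span is chr3:96904693-97077416 on the plus strand, where 4 genes of the minus strand overlap it, and no source used here states how strand was handled in counting, so its counts are uncertain to that extent. In all, 24 and 30 UMIs were counted in endothelial barcodes, 4.0 and 3.81 CPM, in 2.37% and 2.96% of them. In the other classes Gja5 was at most 0.536 CPM, and macrophages had 0 UMIs, which allows up to 0.788 and 0.391 CPM for a count of 0. The endothelial level exceeded that of pericytes (2 and 5 UMIs) by 3.13 ± 0.72 on the log2 scale (edgeR adjusted p = 0.00241; 14.2% of genes were called higher in endothelial barcodes). At counts this low the share of cells expressing Gja5 cannot be read from the share with a UMI.

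The endothelial class was divided by bed markers that include no connexin, with at least 3 UMIs and most of the 3 sets, into 20 and 29 arterial, 344 and 465 capillary and 79 and 91 venous barcodes. Gja5 was 22.4 and 67.8 CPM in arterial barcodes, on 5 and 15 UMIs. It was 2.05 and 1.61 CPM in capillary barcodes and 11 and 2.75 CPM in venous ones. Arterial barcodes exceeded the mean of the other beds by 3.36 ± 0.71 on the log2 scale (edgeR adjusted p = 0.00816 over 14863 genes). Taken on log2(CPM + 1) with no test, the same difference was 1.95 in library 1 alone and 4.46 in library 2 alone.

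Gja4 was also highest in arterial barcodes. It was 627 and 1098 CPM in arterial barcodes, 75.0 and 66.9 CPM in capillary and 132 and 94.8 CPM in venous barcodes. The arterial values lay above the others in both libraries, by 3.02 ± 0.43 (edgeR adjusted p = 0.00407). Gja4 in these few barcodes was not divided by mural marker UMIs, and the part of mural RNA in it was not tested. The 21 and 24 endothelial barcodes given no bed had 549 and 653 CPM, near the arterial level of library 1. Thus 2 of 7 members were called higher in arterial barcodes, where 1.21% of all genes were, and 1 was called lower, where 2.37% were. The lower member was Gjc1, with 13.4 and 27.1 CPM in arterial barcodes on 3 and 6 UMIs (-1.60 ± 0.38, edgeR adjusted p = 0.0165; 0.0732 by DESeq2). Gja1 was 313 and 226 CPM in arterial, 503 and 543 CPM in capillary and 404 and 522 CPM in venous barcodes, and its arterial difference of -1.13 ± 0.35 did not pass (edgeR adjusted p = 0.106), but did with no filter on low counts (-1.02, edgeR adjusted p = 2.94e-05). On log2(CPM + 1) with no test, library 1 and library 2 alone gave arterial differences of 2.64 and 3.77 for Gja4, -1.79 and -0.94 for Gjc1, and -0.52 and -1.23 for Gja1.

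In capillary barcodes Gja5 and Gja4 were called lower (-3.19 ± 0.69 and -2.04 ± 0.46, edgeR adjusted p = 0.00500 and 0.0216), where 1.56% of all genes were, and 0 members were called higher, where 4.26% of genes were. Of the members not called higher there, Gja1 had an unadjusted p of 0.0400 and Gjc1 of 0.000951 with a log2 fold change of 0.94. In venous barcodes 0 members were called in either direction (2.02% and 1.29% of genes), and Gjc1 had an unadjusted p of 0.0260. The pair Gja4 and Gja5 was found in 9 and 13 endothelial barcodes. Of barcodes with Gja5, 81.8% and 72.2% also held Gja4.

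**Figure D3:**
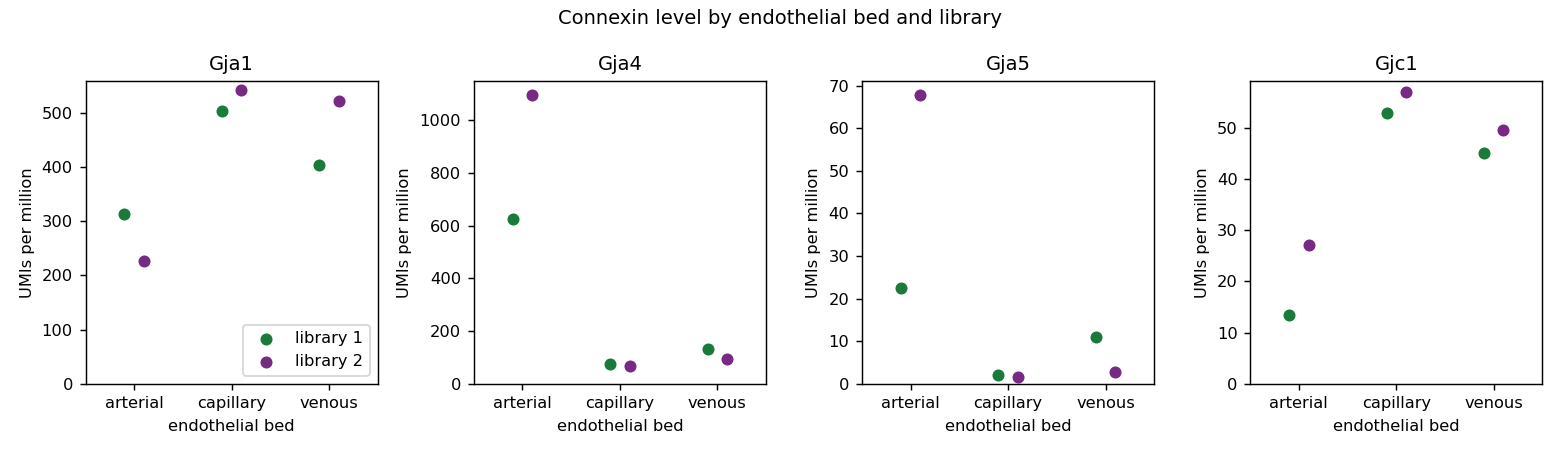
Level of 4 connexins in arterial, capillary and venous endothelial barcodes, in CPM on a linear axis from 0, with 1 point per library. Gja4 reaches 627 and 1098 CPM and Gja5 22.4 and 67.8 CPM in arterial barcodes, while Gja1 and Gjc1 are lowest there.

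Gjc1 encodes Cx45, known from vascular smooth muscle and the early heart, and lies at chr11:102799579-102819700 on the minus strand. It was 135 and 130 CPM in pericytes and 107 and 119 CPM in smooth muscle. Pericytes were the higher in both libraries and the values did not overlap, but the difference did not pass the test (0.28 ± 0.16, edgeR adjusted p = 0.260; 6.04% of genes were called higher in pericytes). Fibroblasts had 53.3 and 61.2 CPM and endothelial barcodes 49.7 and 55.0 CPM. Smooth muscle exceeded fibroblasts by 0.88 ± 0.16 (edgeR adjusted p = 0.000601), below the fold limit for a call, and fibroblasts and endothelial barcodes did not differ beyond their spread. Melanocytes had 14.6 and 18.0 CPM, RPE 12.7 and 13.7 CPM and macrophages 0.788 and 2.61 CPM. Endothelial barcodes exceeded melanocytes by 1.72 ± 0.16 (edgeR adjusted p = 3.6e-07; 18.1% of genes were called higher in endothelial barcodes). RPE exceeded macrophages by 2.56 ± 0.27 (edgeR adjusted p = 6.17e-07; 29.2% of genes were called higher in RPE). Gjc1 in smooth muscle was 84.8 and 85.0 CPM in barcodes with 0 pericyte marker UMIs and 118 and 121 CPM in those with at least 5; whether this dependence differs from that of Gja4 was not tested.

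Gjb2 and Gjb6 encode Cx26 and Cx30. They lie on the minus strand of the same chromosome, at chr14:57098600-57104702 and chr14:57123303-57133611, with 18600 bases and 1 annotated gene (Gm4491) between them. Because both were highest in melanocytes, the 250 bases before the start of each are shown from RefSeq (GRCm38.p6), 5′ to 3′ on the gene's strand, with any match to the searched motifs in capitals:
Gjb2 (chr14:57104703-57104952, minus strand): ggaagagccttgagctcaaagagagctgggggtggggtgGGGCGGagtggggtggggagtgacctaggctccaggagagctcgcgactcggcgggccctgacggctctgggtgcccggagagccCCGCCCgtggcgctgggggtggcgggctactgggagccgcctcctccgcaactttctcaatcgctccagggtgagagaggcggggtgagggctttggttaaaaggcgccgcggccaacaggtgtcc
Gjb6 (chr14:57133612-57133861, minus strand): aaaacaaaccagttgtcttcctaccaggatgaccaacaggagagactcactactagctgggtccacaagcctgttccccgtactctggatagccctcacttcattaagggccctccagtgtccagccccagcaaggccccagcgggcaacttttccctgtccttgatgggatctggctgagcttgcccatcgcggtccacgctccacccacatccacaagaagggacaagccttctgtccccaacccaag
The motifs were the GC box GGGCGG, the E-box CACGTG, the related CATGTG and the longer TCATGTG that contains it, each on both strands. The Gjb2 window held 2 GC boxes, 1 on each strand, and none of the others. The Gjb6 window held none of the 4. Among 32536 different windows of the same length, 33.0% held the GC box, 6.04% held CACGTG, 12.3% held CATGTG and 3.27% held TCATGTG. The windows differed in base composition, with 69.2% G or C in Gjb2 and 56.8% in Gjb6.

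Gjb2 was 684 CPM in library 1 and 484 CPM in library 2 in melanocytes, and 85.9% (exact 95% interval 84.0% to 87.7%) and 79.8% (78.1% to 81.4%) of melanocyte barcodes held a UMI. In every other class it was between 0.500 and 9.43 CPM, and 2.1% and 2.08% of macrophages held a UMI. Melanocytes exceeded pericytes, the next class with 5.82 and 9.43 CPM, by 6.20 ± 0.52 on the log2 scale (edgeR adjusted p = 2.27e-05), in a contrast in which 19.5% of genes were called higher in melanocytes. Below melanocytes no 2 neighbouring classes differed beyond their spread. Free RNA held Gjb2 at 127 and 78.4 CPM. In fibroblasts 66.8% and 49.2% of Gjb2 UMIs lay in the 52 and 120 barcodes with at least 5 melanocyte marker UMIs, and barcodes with 0 had 1.73 and 1.89 CPM.

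Gjb6 followed the same pattern. It was 173 and 141 CPM in melanocytes, in 69.4% (67.0% to 71.8%) and 61.5% (59.5% to 63.5%) of barcodes, and at most 1.36 CPM in each other class. Melanocytes exceeded fibroblasts, with 1.36 and 1.11 CPM, by 6.88 ± 0.18 (edgeR adjusted p = 6.17e-12; 15.8% of genes were called higher in melanocytes). Below melanocytes no neighbouring classes differed beyond their spread in Gjb6 either. The calls of Gjb2 and Gjb6 as lower in RPE (-1.32 ± 0.49 and -1.10 ± 0.31) turned to 0.95 and 1.58 with free RNA subtracted, neither called. At RPE levels of 2.46 and 3.21 CPM for Gjb2 and 0.513 and 0.733 CPM for Gjb6, these calls rest on counts of 24 and 70 and of 5 and 16 UMIs. That of Gjb2 was also lost by DESeq2 (adjusted p = 0.0510), with no filter on low counts (edgeR adjusted p = 0.0961) and with class markers at least 4 times the next (edgeR adjusted p = 0.0738).

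Both genes were found together in 65.4% and 56.9% of melanocyte barcodes. Gjb6 was found in 76.1% and 71.3% of barcodes with Gjb2, and in 28.8% and 22.9% of those without it. Median depth was 12500 and 11097 UMIs in barcodes with both, and 9625 and 9070 UMIs in barcodes with Gjb2 alone, and the part of depth in the difference was not tested. Gates for melanocyte forms, marked by Tyrp1 and Prb1 and by Syt4, Scrg1 and Nrcam, each had both genes, with no count of the pair within a form. In the first form Gjb2 was 712 and 490 CPM and Gjb6 175 and 143 CPM. In the second Gjb2 was 553 and 490 CPM and Gjb6 172 and 143 CPM. Melanocyte barcodes given neither form had lower means over the libraries, 173 CPM for Gjb2 and 66.1 CPM for Gjb6. A mean of 28.9% of them held Gjb2 and 25.6% held Gjb6, and their Gja1 mean was 160 CPM. The forms were not tested against each other.

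A small set of barcodes in the melanocyte class went the other way. Gja1 was 38.0 and 108 CPM in melanocytes, in 9.03% and 16.9% of barcodes, with library 2 the higher, and the class was not called (-0.39 ± 0.25, edgeR adjusted p = 0.226). Pax6, an eye-field transcription factor, and Optc, the opticin of ciliary epithelium, mark neural-derived epithelium and not melanocytes. In the 5 and 60 melanocyte barcodes with at least 5 UMIs of this pair, Gja1 was 1446 and 929 CPM, Gjb2 was 0 and 43.3 CPM and Gjb6 was 0 and 11.4 CPM. In the 1323 and 2029 barcodes with 0, Gja1 was 20.8 and 36.7 CPM, Gjb2 692 and 531 CPM and Gjb6 177 and 157 CPM. Gja1 in melanocytes moved with other second markers too. It was 101 and 136 CPM in the 100 and 245 barcodes with at least 5 fibroblast marker UMIs, of which 56.0% and 55.1% held it, and 11.5 and 57.5 CPM in those with 0, of which 3.52% and 9.77% did. It was 59.95 and 387 CPM in the 7 and 63 barcodes with at least 5 RPE marker UMIs, and 23.6 and 42.2 CPM in those with 0. The part of these markers in the level was not tested. Without the 198 and 733 melanocyte barcodes that held any Pax6, Optc or RPE marker UMI, Gja1 was called lower in melanocytes (-2.07, edgeR adjusted p = 6.61e-07). That comparison and the Pax6 and Optc division were chosen after the values were seen.

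Gjc3 encodes Cx29, at chr5:137953461-137963098 on the minus strand. In melanocytes it was 11.6 and 12.9 CPM, on 196 and 334 UMIs, and 12.8% and 12.9% of barcodes held a UMI, against 0.233% and 0.116% of macrophages. Fibroblasts were next with 1.04 and 0.687 CPM, and melanocytes exceeded them by 3.74 ± 0.32 (edgeR adjusted p = 6.34e-07). Endothelial and smooth muscle barcodes held 0 UMIs in both libraries, which allows up to 0.381 CPM in endothelial and 1.02 CPM in smooth muscle barcodes of library 2. RPE had 1 and 4 UMIs, pericytes 0 and 2, and macrophages 1 and 1.

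Cdh19, a cadherin gene of the Schwann cell lineage, moved with Gjc3 in fibroblasts. The 3946 and 6102 fibroblast barcodes with 0 Cdh19 UMIs held 12 of the 39 and 15 of the 42 Gjc3 UMIs of the class, at 0.324 and 0.252 CPM. Those with 1 to 4, 51 barcodes in library 1 and 112 in library 2, had 49.1 and 9.87 CPM. These levels rest on 26 and 15 Gjc3 UMIs in 5 and 11 barcodes. The 1 and 18 barcodes with at least 5 Cdh19 UMIs held 1 and 12 Gjc3 UMIs. Without the 52 and 130 fibroblast barcodes with any Cdh19 UMI, left out after the values were seen, the call in fibroblasts was lost (2.73 ± 0.64 with them; 1.19 without, edgeR adjusted p = 0.216). Both fibroblast folds are against a mean that includes classes with 0 UMIs of Gjc3, so they are no estimate of size. In melanocytes, of which many hold Cdh19, Gjc3 was 12.6 and 14.8 CPM in barcodes with 1 to 4 of its UMIs and 10.6 and 9.54 CPM in those with 0. Outside the classes, the 2 and 12 barcodes with at least 5 Cdh19 UMIs held 1 and 2 Gjc3 UMIs, too few to give a level.

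**Figure D4:**
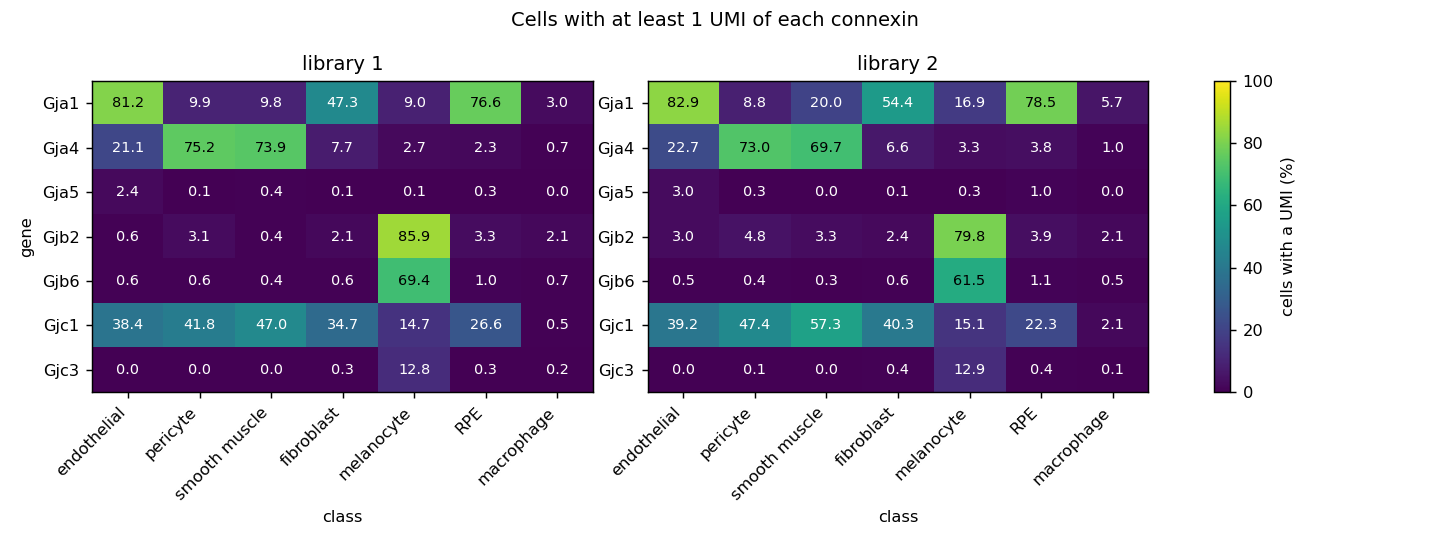
Share of barcodes with at least 1 UMI of each connexin, by class (columns) and gene (rows), for each library, in percent. Shares are not adjusted for depth, which is highest in RPE. Gjb2 reaches 85.9% and 79.8% in melanocytes, Gja1 81.2% and 82.9% in endothelial barcodes and Gja4 75.2% and 73.0% in pericytes.

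Pairs of members were counted in each class. Of 147 pair-by-class combinations, 31 were found in at least 1% of barcodes in both libraries, 11 of them in melanocytes and 0 in macrophages. After thinning to 3000 UMIs 16 were. Of those 16, 6 were in melanocytes. With class markers at least 4 times the next, 30 were found, 11 of them in melanocytes. Melanocytes had 3 or more members in 22.4% and 23.1% of barcodes, against 2.43% and 2.86% of fibroblasts, at different median depths (11464 and 10081 UMIs in melanocytes, 7837 and 8333 UMIs in fibroblasts). Scrublet marked 7.75% and 12.1% of melanocyte barcodes as likely doublets, 1.88% and 3.64% of fibroblasts and 0.466% and 3.93% of macrophages. These were kept in the counts, and their part in the pairs was not tested. In endothelial barcodes the most common pair was Gja1 with Gjc1, in 34.9% (exact 95% interval 30.6% to 39.4%) and 34.6% (30.9% to 38.6%). Barcodes with this pair had median depths of 17042 and 17261 UMIs, against 7192 and 6404 UMIs for barcodes with Gja1 alone.

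In the mural classes the most common pair was Gja4 with Gjc1, in 32.5% and 36.1% of pericytes and 33.3% and 39.1% of smooth muscle barcodes. Gjc1 was found in 43.1% and 49.4% of pericytes with Gja4, and in 37.7% and 41.8% of those without. Gja4 was less frequent in mural barcodes with Gja1 than in those without in both libraries, with no test over 2 libraries. It was found in 38.8% and 56.8% of pericytes with Gja1, and in 79.3% and 74.5% of those without. In smooth muscle the shares were 43.5% and 25.8% with Gja1, and 77.3% and 80.7% without. Mural Gja4 was not counted by the fibroblast markers given above for Gja1, and the part of those markers in this difference was not tested. In melanocytes Gjb2 was found in 60.6% and 51.2% of barcodes with Gja1, and in 88.4% and 85.6% of those without, beside the Pax6, Optc and other second-marker values above.

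**Figure D5:**
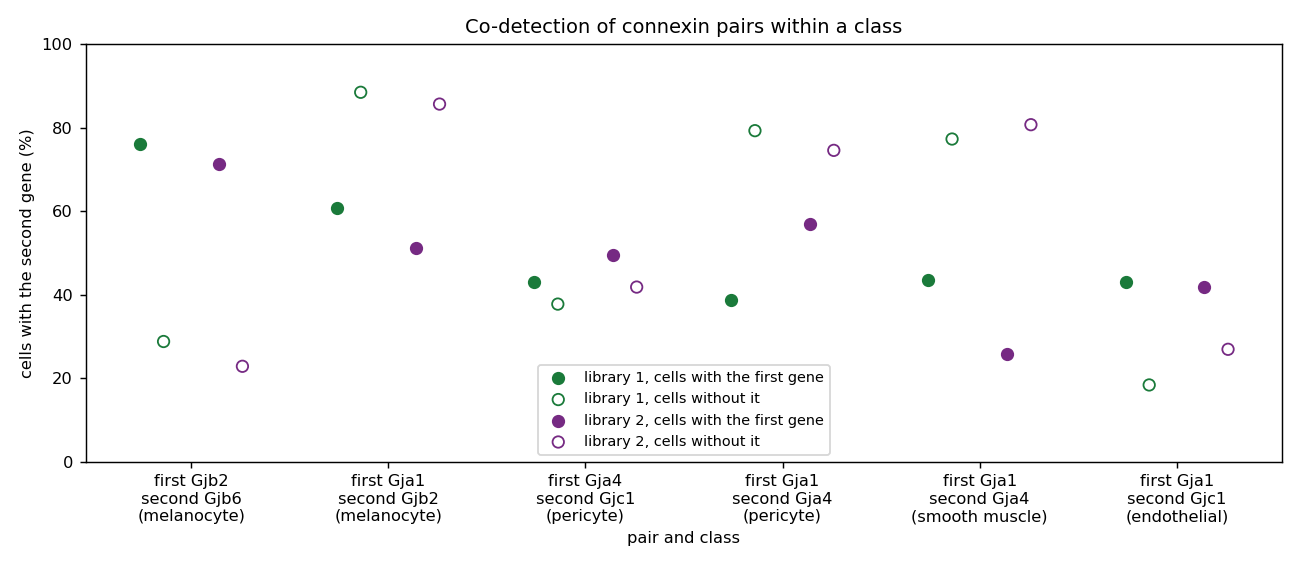
Share of barcodes with the second gene of a pair among barcodes with the first gene (filled) and without it (open), in percent, by pair, class and library. Gjb6 is more frequent in melanocytes with Gjb2, and Gja4 is less frequent in mural barcodes with Gja1.

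Fibroblasts were divided by gates for 7 forms named by their markers, of which each barcode was given the one with most UMIs and at least 3. Gja1 was highest in the Tfpi2-Tcf21 form, with 235 and 293 CPM, and next in the form with the cytokine genes Cxcl5, Csf3 and Il11, with 193 and 258 CPM. The Ltbp2-Comp form had 93.9 and 103 CPM, and the Angptl7-Cilp2 form 89.0 and 148 CPM. The 3 other forms lay between 120 and 207 CPM. Gjc1 varied less, from 47.0 CPM in the Angptl7-Cilp2 form to 79.8 CPM in the Tfpi2-Tcf21 form. No test was run between the forms.

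The genes most like each member were ranked by Pearson's r of log2(CPM + 1) over the 14 sums of 7 classes and 2 libraries, as a description in which points of a library share depth. For Gja1 they were S100a16 (r = 0.962), Fzd6 (0.956) and Nfib (0.947). For Gja4 they were Mfge8 (0.984), Nudt4 (0.980) and Sncg (0.979). For Gja5 they were Aplnr, the apelin receptor (0.985), Alox12 (0.979) and the Notch ligand Dll4 (0.978). For Gjb2 they were the endolysosomal channel gene Mcoln3 (0.983), Card14 (0.983) and Snx22 (0.978). For Gjb6 they were the T-box factor Tbx4, Prlh and Gm10067 (0.996, 0.996 and 0.995). For Gjc1 they were Pqlc1 (0.974), 4921524J17Rik (0.973) and Btg3 (0.970), and for Gjc3 the glutamate receptor subunit Gria4 (0.994), Gm16984 (0.990) and Diras1 (0.988). With a pseudocount of 5 in place of 1, the first 3 of each member changed by 1 gene, and Fzd6, Mfge8, Dll4, Snx22, Tbx4, Btg3 and Gm16984 were those that dropped out. Mcoln3, for example, was 135 and 149 CPM in melanocytes and at most 1.36 CPM in each other class.

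Of the 13 other connexin genes, 3 passed the filter on low counts. Gja3 (Cx46, a lens connexin) was 3.12 and 4.14 CPM in melanocytes, on 53 and 107 UMIs, and was called higher there (edgeR adjusted p = 7.54e-07). Its counts in melanocytes also carried it past the filter, so that call is not independent of the filter. It was called higher in smooth muscle too (edgeR adjusted p = 0.00591), at a mean of 0.933 CPM. As 4 classes had 0 UMIs of it, its fitted folds are no estimate of size. Gja10 and Gje1 had 0 UMIs in all 7 classes.

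Pannexins form channels of a similar build that do not usually join cells. Panx1 alone of 3 was tested. It was 1.13 and 2.47 CPM in RPE, where it was called lower (-1.42 ± 0.30, edgeR adjusted p = 0.000732), and 0.788 and 2.61 CPM in macrophages, where it was called lower too (-1.20 ± 0.40, edgeR adjusted p = 0.0174). It was called higher in fibroblasts, with 9.92 and 12.4 CPM (1.27 ± 0.21, edgeR adjusted p = 0.000131), and in endothelial barcodes, with 14.7 and 8.64 CPM (1.25 ± 0.25, edgeR adjusted p = 0.000687). Of 9 genes whose products bind connexins or act on gap junctions, all were tested, and macrophages had 0 called higher and 7 called lower (19.8% and 21.1% of all genes), with a median log2 fold change of -2.38 against -0.14 over all genes. In the other classes 1 to 4 of the 9 were called higher, where 12.4% to 26.3% of all genes were, and 0 to 2 lower, where 6.31% to 23.5% were. Among the macrophage calls Nedd4, a ubiquitin ligase of Cx43, was 16.6 and 46.0 CPM in macrophages (-3.76 ± 0.16, edgeR adjusted p = 3.33e-11), against 692 and 1180 CPM in fibroblasts. Cav1, the caveolin, was 1.84 and 1.82 CPM in macrophages (-4.60 ± 0.43, adjusted p = 7.81e-06 by edgeR). N-cadherin, Cdh2, was 0.263 and 0.521 CPM there (-4.43 ± 0.37, adjusted p = 6.31e-08 by edgeR).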

How the data were processed

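Count matrices of droplet libraries (10x Chromium 3' v3.1) were used. As deposited, each value is a raw count of UMIs for a gene in a barcode. The file headers name Cell Ranger 4, while the submitters' processing notes name version 2.1.1 and build mm10. The gene annotation and strand setting are not given in the sources used here. Gene positions came from GENCODE M21, which held 32235 of 32285 gene IDs, and upstream sequences from RefSeq.

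Barcodes were filtered and classed as stated in the results under Python 3.11.15. Scrublet (scanpy 1.11.5) marked 214 and 706 barcodes, which were kept in the main counts and removed in an alternative. No class was given to 623 and 786 barcodes. Counts were summed per library and class into 14 sums and fitted with edgeR 4.0.16 (R 4.3.3): TMM, filterByExpr, robust quasi-likelihood, library as block, since sums of a library come from the same mice, and 6 residual degrees of freedom. Beds were fitted in 18 sums with 8. An SE was obtained by dividing the absolute log2 fold by the square root of F. Cells were never replicates. Intervals are exact binomial (95%) and floors 3 UMIs; both cover counting error only. DESeq2 1.42.0, other scalings, filters, gates, thinning, free RNA subtraction and single libraries were alternatives. Named genes were all members, up to 3 called genes of the largest fold per list, and the 3 most similar genes. The members and lists were chosen with earlier results of these data known. Of the glial markers Cdh19 alone was used, chosen after values were seen. Some genes of the lists are not reported here.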

Additional observations from a re-analysis of the deposited data

Results flagged for a closer look

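Some connexin signal lay in barcodes outside the 7 classes, above the level that a count of 3 UMIs gives. In the 13 and 76 barcodes of libraries 1 and 2 with at least 5 UMIs of Krt5, Krt14, Krt15, Pax6 and Optc, genes of other epithelia, Gja1 was 254 and 381 CPM, with a UMI in 84.6% and 96.1% of barcodes. Gjb2 was 144 and 103 CPM there, with a UMI in 53.8% and 38.2%, while Gjb6 had 2 and 1 UMIs. These barcodes were compared with no class by a test.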

How the results depend on the processing

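Across the alternatives the calls higher numbered 13 to 15. The calls lower kept within 1.5 times their number except with free RNA subtracted, at a share estimated at up to 18.1% (pericytes, library 2), where they were 4 in place of 13; 17 of the 27 calls were then kept. Without the replicate block 14 and 13 calls were made, the same 27, and DESeq2 shared 25. With no filter on low counts 26 of the 27 were kept. Pairs in at least 1% of barcodes numbered 16 in place of 31 after thinning to 3000 UMIs; each cell has fewer UMIs there by construction. For the differences below the cause was not tested. With free RNA subtracted, log2 folds that changed sign were Gja1 in melanocytes (0.31) and smooth muscle (0.21), Gja4 in fibroblasts (0.47), Gjb2 in fibroblasts (0.81), RPE (0.95), pericytes (-2.35) and smooth muscle (0.73), Gjb6 in fibroblasts (2.51) and RPE (1.58), and Gjc3 in macrophages (-3.52). By DESeq2 they were Gjc3 in RPE (-0.66) and macrophages (-0.16) and Gjb2 in capillary barcodes (-0.22). With class markers at least 4 times the next they were Gja5 in melanocytes (0.43) and Gjc3 in RPE (-0.39). Gjb2 in pericytes was -0.0061 with no replicate block and -0.031 without melanocyte barcodes with Pax6, Optc or RPE markers. Of these only Gjb2 and Gjb6 in RPE were called in the main analysis. Without fibroblast barcodes with a Cdh19 UMI, 24 of the 27 calls were kept; those of Gjc3 in fibroblasts (1.19) and of Gjb2 (-1.26) and Gjb6 (-0.98) in RPE were lost. In single libraries the highest class exceeded the next by 1.47 to 1.73 (Gja1), 0.13 to 0.23 (Gja4), 1.65 to 1.93 (Gja5), 5.54 to 6.65 (Gjb2), 6.07 to 6.21 (Gjb6), 0.13 to 0.33 (Gjc1) and 2.62 to 3.05 (Gjc3) on log2(CPM + 1). With 2 libraries, 20 and 29 arterial barcodes and a few UMIs of Gja5, differences between beds are limited by depth.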
